A study of Arabidopsis thaliana with 24 samples.

Results

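Leaf ageing in wild-type Arabidopsis thaliana was read here from mature against young rosette leaves of the accession Col-0, sampled from the same growth stage. The rule took 6 libraries of the 24 in the series, namely 3 of young leaves (wY) and 3 of mature leaves (wM), and all 33044 genes of the deposited table were considered. Both groups are untreated Col-0 plants that carry no mutation or transgene, were 5 weeks old after germination, and were sampled as leaves with their petioles in the stage that the labels call the Retard Period. The study took the youngest few leaves of a rosette as young and harvested the leaves for sequencing late in the light phase. The other groups of the series are the same leaves of the double mutant dpe2/phs1, which lacks a cytosolic and a plastidial enzyme of maltodextrin metabolism, and whole shoots of both genotypes at 3 and 7 weeks after germination. Only the dpe2/phs1 leaves (dY and dM, 3 libraries each, also at 5 weeks) are compared with Col-0 below.

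A leaf begins as a group of dividing cells at the shoot tip. Division stops first at the tip of the young leaf and last at its base, scattered epidermal cells go on to form stomata, and the cells then expand while their chloroplasts are built. Growth needs new ribosomes, new wall and a new cuticle, the waxy layer that only epidermal cells make. A mature leaf is a source that exports sucrose through the phloem, and with further age it moves towards senescence, when chlorophyll, protein and RNA are broken down and their nitrogen is exported.

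Expression was given as FPKM, fragments scaled by gene length and by the mapped fragments of the library. Whole reads recovered from these values summed to between 17557554 and 23038204 in the wY libraries and between 19125634 and 27859783 in the wM libraries. On the first principal component, which held 86.2% of the variance of the 6 libraries, wY lay between -52.8 and -47.9 and wM between 49.8 and 52.0. The third wY library stood apart on the next component (5.30% of the variance, -24.0 against 7.11 and 15.8 for the other wY libraries). Replicates of a group differed from each other by more than counting noise, with a mean chi-square per gene of 4.56 to 15.3. The labels name no batch or date, and they do not say whether replicates came from separate plants. The study itself states 3 biological replicates for each condition. The p-values rest on a spread between replicates that is shared over the 24 libraries of all 8 groups, and part of it may be technical. The leaf identity of the samples was visible in both groups: the mesophyll gene RBCS-1A, a Rubisco small subunit, was listed at 13731, 12765 and 15231 FPKM in wY and 15660.3, 16125 and 17582 FPKM in wM. Only 1 of 14 floral organ genes and 5 of 15 root genes reached the level needed for testing in any of the 8 groups. That count is not of wY and wM alone, since the root gene PER3 was tested with means of 0.424 and 0.0139 FPKM here.

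Mature and young leaves differed in a large share of the transcriptome. Of 19575 genes tested, 8621 (44.0%) passed an adjusted p of 0.05 with limma on log2(FPKM + 1), 3688 of them (18.8%) higher in mature leaves and 4933 (25.2%) lower. With a change of at least 2-fold on that scale added, 1110 genes (5.67%) were higher and 1232 (6.29%) lower. All 3 wM libraries lay above all 3 wY libraries for 5053 genes (25.8%) and below them for 6908 (35.3%). The median log2 change over all genes tested was -0.07. Rescaling the libraries by the median of ratios moved that median by 0.10 to 0.02, and turned the split to 4550 higher and 3987 lower, so that the share of calls that were higher went from 42.8% to 53.3%. A list median is therefore to be read beside the median of all genes. The calls and counts below were made without this rescaling, unless stated otherwise. Changes were computed after adding 1 FPKM, which understates the change of weakly expressed genes.

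**Figure D1:**
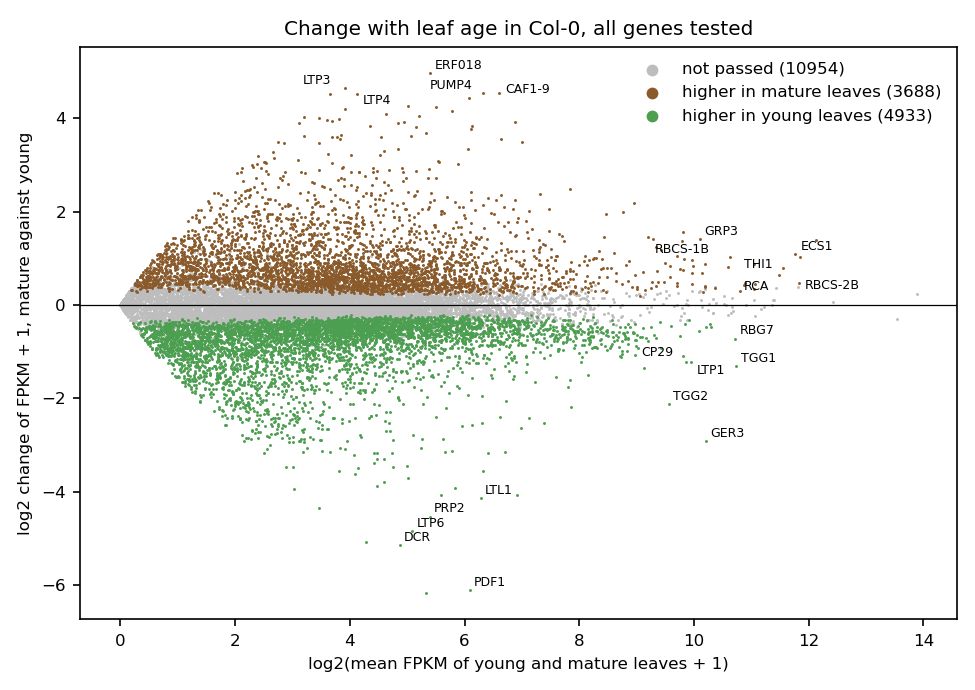
Each point is 1 of 19575 genes, with its mean level in young and mature Col-0 leaves on the x axis and its log2 change with leaf age (mature against young, FPKM + 1) on the y axis. Brown points are the 3688 genes higher in mature leaves and green points the 4933 genes lower in mature leaves. The largest falls reach beyond -6 and the largest rises lie near 5, while the most abundant named genes changed by 3 or less on the log2 scale.

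Among the 12 largest falls by the naming rule were genes of the epidermis and its cuticle and TMM, which acts in stomatal patterning, beside wall and chromatin genes described further on. PDF1 (AT2G42840, TAIR10 chr2:17826071-17827648, minus strand), the protodermal factor that marks the outer cell layer, was at 134, 137 and 129 FPKM in the 3 wY libraries and at 1.1, 1.08 and 0.669 FPKM in the 3 wM libraries. Its log2 change was -6.11 ± 0.11 (SE, limma, adjusted p = 5.30e-21), and the mean was 139.9-fold higher in young leaves, without overlap. DCR, an acyltransferase needed for cutin, was at 56.2, 55.3 and 56.4 FPKM in wY and at 0.921, 0.483 and 0.435 FPKM in wM (log2 change -5.15 ± 0.18). LTP6, a lipid transfer protein, went from 58.8, 69 and 66.4 FPKM to 1.67, 1.18 and 1.01 FPKM (log2 change -4.85 ± 0.13). The naming rule itself required that young and mature libraries not overlap for these genes. CER1, which takes part in making the alkanes of leaf wax, fell from 32.5, 31.3 and 28.2 FPKM to 1.81, 1.43 and 1.56 FPKM. LTL1, a GDSL lipase, fell from 152, 146 and 140.1 FPKM to 6.97, 7.14 and 7.93 FPKM. CYP77B1, a cytochrome P450, was at 13.8, 14 and 15 FPKM in wY and had no read in any wM library, and against a floor of 3 reads per library it was at least 209-fold lower in mature leaves.

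Of 40 tested genes of the epidermis, cuticle and wax, 26 were lower in mature leaves and 8 higher, with a median log2 change of -0.61. The 2 regulators that keep epidermal identity both fell: ATML1 from a mean of 34.9 to 18.5 FPKM and PDF2 (AT4G04890) from 53.8 to 36.9 FPKM. LACS1 and LACS2, long-chain acyl-CoA synthetases of wax and cutin synthesis, fell by 1.78 and 1.43 on the log2 scale. LTP1, the most abundant member, fell from 1338, 1378 and 1411 FPKM to 610.3, 541 and 615 FPKM. The list did not move as a block, since LTP3 and LTP4, neighbouring lipid transfer genes whose reads may be shared, were among the largest rises of all genes. LTP3 had 5, 0 and 3 reads in the wY libraries and was at 28.9, 24.1 and 31 FPKM in wM. LTP4 was at 0.209, 0.824 and 0.327 FPKM in wY and 35, 26.4 and 35.8 FPKM in wM. MYB96, a factor that activates wax genes under drought, rose from 5.1, 6.63 and 4.02 to 12.8, 11.7 and 12.9 FPKM (log2 change 1.13 ± 0.16), and CUT1, an elongase subunit of wax synthesis, rose from a mean of 78.2 to 134 FPKM. In a bulk sample, fewer cells of a type and less RNA per cell cannot be told apart.

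The L1 box, TAAATGCA, is known from promoters that are active in the outer cell layer, where it is bound by factors of the ATML1 family. Searched on both strands from 250 bases before to 50 bases after the transcription start in the RefSeq annotation of TAIR10.1, it was found in 8 of the 40 epidermal list promoters (20%) and in 497 of all 27418 promoters (1.81%). The 8 stretches are shown because they let the members that fell and those that did not be set beside each other. Each runs 5′ to 3′ in the direction of the motif, with the motif in capitals, and they are ordered by the log2 change of the gene.
PDF1, chr2:17827600-17827629: atgggatagtgTAAATGCAcctgcaacaca
GPAT8, chr4:176826-176855: acgttatgtttTAAATGCAcctatattgaa
FDH, chr2:11173314-11173343: aaaaattgtaaTAAATGCAaacataagatc
KCS9, chr2:7050712-7050741: tcacattaaagTAAATGCAgacatatgcta
ABCG11, chr1:6142309-6142338: tctattcatacTAAATGCAaaccatctatc
MYB94, chr3:17541454-17541483: gagcaagagagTAAATGCAtttggctgtcc
MYB96, chr5:25081147-25081176: gagaaagagagTAAATGCAttttgctgtcc
LTP4, chr5:23925930-23925959: aatgcatgaagTAAATGCAaaaccaactac
The log2 changes in this order were -6.11 for PDF1, -0.76 for GPAT8, -0.59 for FDH, -0.34 for KCS9, -0.24 for ABCG11, 0.16 for MYB94, 1.13 for MYB96 and 4.53 for LTP4. 4 of these genes were lower in mature leaves, 2 were higher and 2 did not pass, so the letters were present in genes that moved in either direction. The median log2 change was -0.29 for the 8 list members with an L1 box and -0.68 for the 32 without one.

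**Figure D2:**
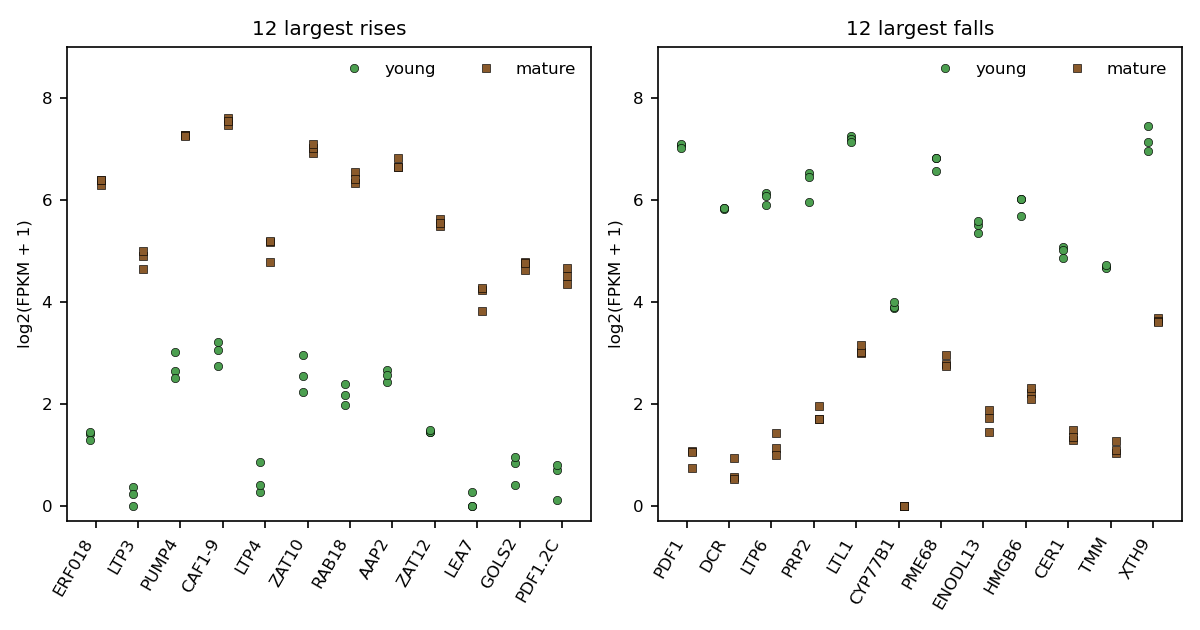
Levels as log2(FPKM + 1) in each of the 3 young (green circles) and 3 mature (brown squares) Col-0 libraries, for the 12 genes with the largest rise and the 12 with the largest fall by the naming rule. Young and mature libraries do not overlap for any of the 24 genes, which is a condition of the rule, and CYP77B1 is at 0 in all 3 mature libraries.

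Genes that act early in the stomatal lineage were among the larger falls. Of 21 tested genes of the stomatal lineage, 17 were lower in mature leaves and none was higher, with a median log2 change of -1.26. SPCH, the factor that starts the lineage, was at 10.2, 9.45 and 8.09 FPKM in wY and at 0.102, 0.119 and 0.177 FPKM in wM (log2 change -3.17 ± 0.14). TMM, a receptor-like protein that spaces stomata, fell from 24.9, 24.2 and 25.3 FPKM to 1.06, 1.4 and 1.15 FPKM. EPF2, a secreted peptide that limits entry into the lineage, fell from 8.13, 6.54 and 5.19 FPKM to 0.0867, 0 and 0.215 FPKM. The change was smaller towards the end of the lineage: MUTE, which ends the amplifying divisions, fell by 1.49 and FAMA, which acts in the last division, fell by 0.60 on the log2 scale. The added 1 FPKM holds down the value of MUTE, which had a mean of only 2.34 FPKM in wY. By the means, SPCH fell 69.7-fold, MUTE 12.6-fold and FAMA 1.58-fold. Genes of finished guard cells did not fall as a group, with 2 of 13 higher and 1 lower and a median log2 change of 0.02. Over all genes 18.8% were higher and 25.2% lower. The member that fell was MYB60, a guard cell marker, from 9.07, 10.2 and 7.49 FPKM to 5.61, 7.13 and 5.7 FPKM. CYP86A2, a fatty acid hydroxylase among the guard cell markers, was at 30.7, 27.7 and 27 FPKM in wY and 45.5, 41.6 and 50.1 FPKM in wM. Of 17 trichome genes, 9 were lower and none higher (median -0.51), among them GL2, a homeodomain factor of trichome growth, at 8.56, 8.12 and 7.42 FPKM in wY and 0.733, 0.772 and 0.775 FPKM in wM.

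Most tested genes of mitosis were lower in mature leaves. Of 24 genes of mitosis and cytokinesis, 22 were lower in mature leaves and none was higher, with a median log2 change of -1.93 against -0.07 for all genes. CDC20-1, an activator of the complex that degrades mitotic cyclins, was at 29.99, 34 and 30.04 FPKM in wY and 2.12, 1.97 and 1.51 FPKM in wM (log2 change -3.50 ± 0.18, adjusted p = 5.23e-13). KN, the syntaxin of the forming cell plate, fell from 24.7, 26.2 and 26.7 FPKM to 2.18, 2.6 and 1.8 FPKM. HMGB6, an HMG-box protein outside this list, fell from 63.5, 64.2 and 50.2 FPKM to 3.64, 3.98 and 3.25 FPKM and was among the 12 largest falls. The summed FPKM of the mitosis list was 297 to 314 in wY and 71.8 to 76.1 in wM. CKS1, a small partner of cyclin-dependent kinases, was the most abundant member and did not pass, with means of 24.3 and 22.1 FPKM.

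All the A and B cyclins that passed were lower in mature leaves, 17 of 18 tested, with a median log2 change of -1.97. CYCB1-2, a B-type cyclin that peaks at mitosis, was at 20.5, 22 and 21.9 FPKM in wY and 1.94, 1.19 and 1.58 FPKM in wM (log2 change -3.14 ± 0.17). CYCA3-2, an A-type cyclin, was the exception, at 16.3, 17.1 and 16.5 FPKM and 15.1, 13.8 and 16.9 FPKM (adjusted p = 0.405). Of 9 D cyclins, which respond to growth signals, 7 were lower, led by CYCD3-1 at 20.6, 18.8 and 15.4 FPKM in wY and 2.93, 2.82 and 3.28 FPKM in wM. Of the DNA replication genes, 7 of 28 were lower, near the 25.2% of all genes, and 1 was higher, against 18.8% of all genes. Their median log2 change was -0.30. Without the first wM library 3 of them were lower, without the second wY library 4, and in a fit of the 6 Col-0 libraries alone 14. PCNA, the sliding clamp of DNA polymerase, was at 23.6, 23.3 and 24.6 FPKM in wY and 17.5, 13.5 and 15.8 FPKM in wM. Of 36 histone genes, 21 were lower and 2 higher (median -0.51). HTB1, a histone H2B, fell from 66.3, 69.2 and 75.4 FPKM to 32.7, 31.1 and 31.1 FPKM.

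Promoters of genes expressed at mitosis are known to carry the MSA element, whose core AACGG is bound by factors of the MYB3R family. The core was found on either strand in 11 of 18 promoters of the A and B cyclins (61.1%), in 15 of 24 of the mitosis list (62.5%) and in 24.7% of all promoters. The A and B cyclins with the core had a median log2 change of -2.03 and the 7 without it -0.71, and 11 of 11 with and 6 of 7 without it were lower in mature leaves. The promoter of CYCB1-2 is shown from 250 bases before to 30 bases after its start (chr5:1861674-1861953, minus strand) because this gene fell most among those with the core, and it holds 5 cores, in capitals.
CYCB1-2 promoter: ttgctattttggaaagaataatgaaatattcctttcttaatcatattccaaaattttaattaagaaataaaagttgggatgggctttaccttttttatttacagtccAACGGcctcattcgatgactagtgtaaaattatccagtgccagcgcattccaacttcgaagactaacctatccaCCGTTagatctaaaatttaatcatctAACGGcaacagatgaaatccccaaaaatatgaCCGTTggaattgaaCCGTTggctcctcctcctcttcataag
MYB3R4, a member of that family which activates mitotic genes, fell itself from a mean of 8.33 to 1.53 FPKM.

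The leaf growth regulators hold both promoters and restrainers of growth. Of 33 tested, 20 were lower and 3 higher, with a median log2 change of -0.53. GRF4, a growth-regulating factor, was at 16.9, 19.7 and 14.7 FPKM in wY and 1.59, 1.62 and 1.24 FPKM in wM (log2 change -2.86 ± 0.13). Its partner GIF1 fell from 5.43, 5.19 and 4.14 FPKM to 0.135, 0.131 and 0.196 FPKM, and ANT, an AP2-type factor that prolongs division, fell from 13, 16.3 and 12.2 FPKM to 2.73, 2.23 and 1.72 FPKM. None of the 3 overlapped between the groups, and 35.3% of all genes were likewise lower in mature leaves without overlap. TCP4, which restrains growth and promotes maturation, was the most abundant of the list and was lower too, at 94.6, 86.8 and 63.3 FPKM and 40.1, 48.1 and 45.8 FPKM. Of 19 genes of leaf polarity and boundaries 8 were lower and none higher (median -0.27), with AS2 and YAB1, determinants of the upper and lower leaf side, falling by 1.45 and 1.38 on the log2 scale. FZR3, an activator of the same complex as CDC20-1, fell from 13.5, 13.5 and 13 FPKM to 1.71, 1.86 and 1.1 FPKM. KRP6, an inhibitor of cyclin-dependent kinases, rose from 3.62, 2.66 and 4.3 to 6.15, 6.61 and 7.07 FPKM.

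Wall-modifying families differed in their counts, and members of 1 family moved in opposite directions. Of 15 expansins, proteins that loosen the wall, 11 were lower and 1 was higher (median -0.67). ATEXPA10 fell from 118, 117 and 139 FPKM to 33.4, 30.3 and 30.9 FPKM, while EXPA11 rose from 27.9, 26.4 and 33.8 FPKM to 50.1, 49.1 and 47.1 FPKM. Of 22 xyloglucan endotransglucosylases, which cut and rejoin xyloglucan, 9 were higher and 7 lower. XTH9 was at 139.6, 124 and 174 FPKM in wY and 11.8, 11.3 and 11.2 FPKM in wM (log2 change -3.55 ± 0.12). XTH22, a member known to respond to touch, went the other way, from 6.44, 6.34 and 6.2 FPKM to 40.7, 41.9 and 45.6 FPKM (log2 change 2.58 ± 0.09). PME68, a pectin methylesterase, fell from 112, 93.3 and 112 FPKM to 5.85, 6.73 and 5.71 FPKM, and PRP2, a proline-rich wall protein, fell from 90.7, 86.7 and 61.6 FPKM to 2.24, 2.24 and 2.88 FPKM. Of 33 genes of vascular tissue and the secondary wall, 22 were lower and 1 was higher (median -0.78). XCP1, a protease of xylem vessel cells, fell from 16.9, 19.5 and 19.4 FPKM to 2.57, 1.61 and 2.72 FPKM. PP2A1, a phloem lectin, was the one that rose, from 40.7, 37.7 and 41.6 FPKM to 95.6, 103 and 106 FPKM.

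Most ribosomal protein genes were lower in mature leaves. Of 201 genes of cytosolic ribosomal proteins, 136 were lower in mature leaves and 2 higher, with a median log2 change of -0.53. RPS8A, the most abundant member with both motifs described next, was at 633, 671 and 828 FPKM in wY and 460.2, 409 and 435 FPKM in wM (log2 change -0.70 ± 0.13, adjusted p = 9.13e-05). The third wY library was the highest for the list, with a summed level of 45027 FPKM against 37863 and 38484 FPKM in the other wY libraries and 26307 to 27916 FPKM in wM. Leaving that library out gave 116 lower members, 4 higher ones and a list median of -0.44. Several members are near-identical copies whose reads may be shared. Of 27 nuclear genes of plastid ribosomal proteins, 23 were lower and none higher (median -0.69), with a summed level of 11623 to 11786 FPKM in wY and 7019 to 7679 FPKM in wM.

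Ribosomal protein promoters in plants are known for the telo-box and for site II elements. The telo-box AAACCCTA was found in 48.5% of 200 promoters of the cytosolic ribosomal list against 6.21% of all promoters, and the site II core TGGGCC in 64.0% against 15.5%, on both strands, with no letters shared between these motifs. The median log2 change was -0.55 for the 97 members with a telo-box and -0.50 for the 103 without one. The promoter of RPS8A (chr5:6853077-6853356, minus strand, 250 bases before to 30 after the start) is shown as an example of both, with 2 site II cores and 1 telo-box, all within 50 bases of the start, in capitals.
RPS8A promoter: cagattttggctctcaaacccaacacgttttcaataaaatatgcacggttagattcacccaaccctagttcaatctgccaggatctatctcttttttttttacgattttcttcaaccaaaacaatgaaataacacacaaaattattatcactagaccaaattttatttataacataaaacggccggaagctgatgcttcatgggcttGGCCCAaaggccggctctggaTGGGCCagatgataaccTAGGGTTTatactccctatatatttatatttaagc

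Genes that build the chloroplast and those that run photosynthesis changed differently. Of 23 chlorophyll synthesis genes, 17 were lower in mature leaves and 2 higher, with a median log2 change of -0.51. PORA, a light-dependent protochlorophyllide reductase best known from seedlings, fell from 8.22, 8.25 and 8.42 FPKM to 0.27, 0.295 and 0.308 FPKM, and PORB, the main form, fell from 701, 651 and 692 FPKM to 334, 322 and 317 FPKM. FC1, a ferrochelatase that makes haem in place of chlorophyll, rose from 19.9, 22.2 and 25.2 to 51.3, 49.3 and 47.7 FPKM. Of 28 genes of chloroplast division and plastid gene expression, 13 were lower and 1 higher (median -0.26). PTAC14, a component of the plastid transcription machinery, fell from 81.8, 79.1 and 76.7 FPKM to 30.2, 31.4 and 29.8 FPKM.

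The nuclear genes of the photosystems and of their antennae were counted apart. Of 24 nuclear photosystem subunits, 3 were higher and 2 lower (median 0.03), and of 20 antenna genes 3 were higher and 7 lower (median -0.11). The sign of both medians depended on the scaling of the libraries: 0.01 for the antenna with the median of ratios and -0.11 for the photosystems with quantile normalization. Without the third wY library 4 antenna genes were lower, and without the first wY library 1 photosystem gene was higher. LHCB1.3, the most abundant antenna gene, was at 13321, 11743 and 14098 FPKM in wY and 11076, 10478 and 10417 FPKM in wM and did not pass (adjusted p = 0.101). Near-identical antenna copies moved apart, since LHCB1.1 fell from 393, 357 and 505 FPKM to 154, 143 and 143 FPKM while LHB1B1 rose from 388, 308 and 468 FPKM to 869.8, 921 and 926 FPKM, and reads of these copies may be shared. The Calvin-Benson cycle, which fixes CO2, had 12 of 23 genes higher and none lower (median 0.26). FBA1, a plastid fructose-bisphosphate aldolase, rose from 615, 526 and 691 FPKM to 1166, 1214 and 1245 FPKM. CP12-2, a small regulator of the cycle, rose from 532, 482 and 613 to 1189.6, 1081 and 1110.1 FPKM.

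Of 95 tested plastid-encoded genes 31 were higher and none lower (median 0.68). The highest of the 6 libraries for their summed level was the third wM library, at 1192 FPKM against 634 and 801 FPKM in the other wM libraries and 436 to 687 FPKM in wY. Without it 10 of these genes were higher, without the first wY library 10, and without the third wY library 20. These transcripts made up 0.0675% to 0.179% of the summed FPKM of a library.

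**Figure D3:**
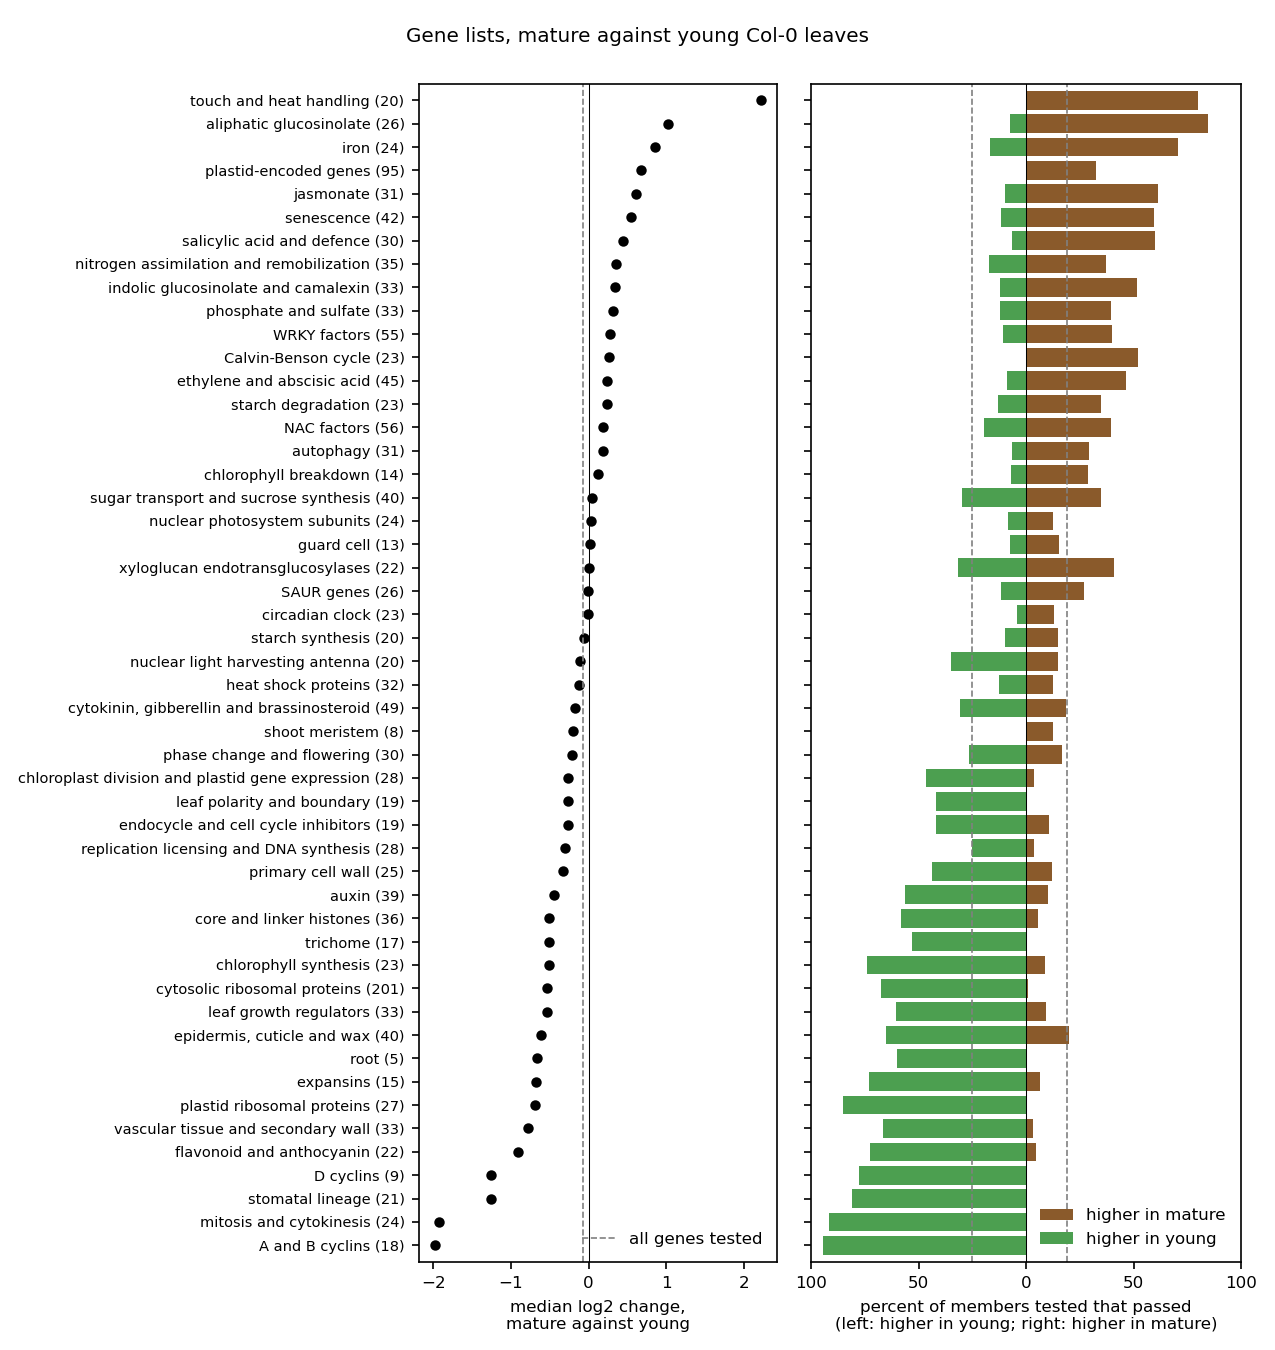
Gene lists with at least 5 tested members, the number tested in brackets. The left panel gives the median log2 change, mature against young, with the median of all genes tested (-0.07) as a dashed line, and the right panel gives the percent of members that passed in each direction, with 25.2% lower and 18.8% higher over all genes as dashed lines. A and B cyclins (median -1.97) and mitosis genes (-1.93) lie at the bottom, touch and heat handling genes (2.22) and aliphatic glucosinolate genes (1.02) at the top.

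Starch and sugar metabolism is the subject of the series, and the targets of its mutations did not pass the test of age in Col-0. DPE2 (AT2G40840, chr2:17044932-17051062), the cytosolic transglucosidase that uses maltose, was at 76.8, 75.4 and 70.4 FPKM in wY and 95.3, 97.6 and 87.6 FPKM in wM (log2 change 0.33 ± 0.17, adjusted p = 0.131). PHS1 (AT3G29320, chr3:11252807-11257814), the plastidial phosphorylase, was at 175, 179 and 154 FPKM in wY and 128, 142 and 109 FPKM in wM (log2 change -0.43 ± 0.20, adjusted p = 0.0905). The libraries of the groups did not overlap for either gene, higher for DPE2 and lower for PHS1 in mature leaves, but neither passed the test. Such separation was common, with 25.8% of all genes higher without overlap and 35.3% lower without overlap. Of 20 starch synthesis genes 3 were higher and 2 lower (median -0.06). APL3, a large subunit of ADP-glucose pyrophosphorylase, rose from 27.1, 27 and 26.9 to 65.7, 63.4 and 62.5 FPKM. Of 23 starch degradation genes, 8 were higher and 3 lower (median 0.24). BAM6, a beta-amylase, rose from 3.44, 4.07 and 3.51 FPKM to 26.5, 30.7 and 23.3 FPKM, and BAM3, the main plastidial beta-amylase of leaves, rose from 178, 172 and 195 FPKM to 547, 537 and 430.2 FPKM. AMY2, an alpha-amylase, rose from 3.26, 3.6 and 3.47 to 11.2, 10.8 and 11.5 FPKM.

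Of 40 genes of sugar transport and sucrose synthesis 14 were higher and 12 lower (median 0.05). The rises included sugar export genes. SWEET15, a sucrose exporter also known as a senescence gene, had 1 read over the 3 wY libraries and was at 6.64, 5.69 and 6.11 FPKM in wM. SWEET11 and SWEET12, which load sucrose for the phloem, had means of 28.3 and 18.8 FPKM in wY and 92.9 and 58.3 FPKM in wM, and both rose. SPS4, a sucrose-phosphate synthase, rose from 19.8, 19.3 and 17.9 FPKM to 97.5, 107 and 72.9 FPKM, and SUS1, a sucrose synthase, rose from 9.05, 9.26 and 10.9 FPKM to 42.8, 41.7 and 41.8 FPKM. STP1, a hexose importer, fell from 30.5, 29.9 and 32 to 14.2, 13.5 and 15.4 FPKM.

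Many senescence genes were higher in mature leaves, but not the marker of its late phase. Of 42 senescence genes, 25 were higher and 5 lower, with a median log2 change of 0.55. WRKY53, an early regulator of senescence, rose from 9.38, 10.8 and 8.09 FPKM to 29.8, 32 and 31.1 FPKM (log2 change 1.62 ± 0.15). SAG113, a phosphatase gene of senescing leaves, rose from 2.19, 1.83 and 2.29 FPKM to 6.73, 7.54 and 7.59 FPKM. SAG12, the protease gene that marks late senescence, was at 0 in all 6 libraries, while NAC92, a NAC regulator of ageing also called ORE1, rose from a mean of 0.096 to 0.816 FPKM. The gene of this list that fell most was AMC9, a metacaspase, from 5.01, 5.17 and 5.07 FPKM to 0.855, 0.402 and 0.788 FPKM. Of 14 chlorophyll breakdown genes 4 were higher and 1 lower (median 0.12), and 7 were higher when the libraries were rescaled by the median of ratios. The shares over all genes were 18.8% higher and 25.2% lower without that rescaling. NYC1, a chlorophyll b reductase, was the most abundant of them, at 154, 158 and 157 FPKM and 179, 177 and 180.1 FPKM, and did not pass. Of 31 autophagy genes 9 were higher and 2 lower (median 0.19). ATG8F, one of the small proteins that mark autophagosomes, rose from 33.9, 35.1 and 40.9 to 69.2, 60.7 and 65.9 FPKM. The 2 that fell are of the same family, ATG8E from a mean of 17.6 to 12.1 FPKM and ATG8H from 9.08 to 6.54 FPKM.

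Amino acid transport and recycling genes held some of the largest rises. AAP2, an amino acid permease of the phloem, was at 4.42, 5.32 and 4.88 FPKM in wY and 98.6, 112 and 99.5 FPKM in wM, a 21.2-fold rise by the means (log2 change 4.15 ± 0.10, adjusted p = 2.26e-18). PPDK, pyruvate orthophosphate dikinase, known for its part in nitrogen remobilization from ageing leaves, rose from 3.69, 4.21 and 3.24 FPKM to 68.1, 68.6 and 59.1 FPKM. In contrast GLN1-3, a cytosolic glutamine synthetase, fell from 47.2, 50.4 and 48.1 FPKM to 15.9, 15.1 and 14.6 FPKM. Of the 35 genes of nitrogen assimilation and remobilization 13 were higher and 6 lower (median 0.35). GLN2, the plastidial glutamine synthetase and the most abundant of the list, was at 979, 943 and 1169.8 FPKM and 1355, 1238 and 1334 FPKM and did not pass.

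Several of the largest rises belonged to genes known for a fast response to stress. ERF018, an AP2/ERF factor, was at 1.65, 1.46 and 1.72 FPKM in wY and at 77.4, 82.5 and 82.7 FPKM in wM (log2 change 4.97 ± 0.22, adjusted p = 2.39e-14), 50.2-fold by the means. ZAT10, a zinc finger repressor of the stress response, rose from 6.8, 4.85 and 3.71 FPKM to 120.3, 129 and 136 FPKM. ZAT12, a related zinc finger factor, rose from 1.73, 1.74 and 1.8 FPKM to 48.6, 43.9 and 45.6 FPKM. The mature libraries were close to each other for these genes, and the naming rule required no overlap with the young libraries. PUMP4, a mitochondrial carrier, rose from 7.1, 5.26 and 4.7 FPKM to 155, 153 and 153 FPKM. CAF1-9, a subunit of the deadenylase that shortens mRNA tails, rose from 5.67, 7.32 and 8.24 FPKM to 193, 177 and 186 FPKM. GOLS2, a galactinol synthase of drought-treated leaves, rose from 0.787, 0.318 and 0.945 FPKM to 26.6, 23.6 and 26.3 FPKM.

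Transcripts known to rise within minutes of touching, wounding or heating a leaf moved with these genes, and ZAT10 and ZAT12 are themselves on that list. Of 20 tested genes of touch and heat handling, 16 were higher in mature leaves and none was lower, with a median log2 change of 2.22, and the summed level of the list was 172 to 188 FPKM in wY and 846 to 877 FPKM in wM. Among the 4 that did not pass were the heat shock members HSP18.1, HSP21 and CLPB1. Their means were 1.34, 0 and 6.94 FPKM in wY and 0.86, 0.157 and 7.24 FPKM in wM. HSP21 had only 0 reads in wY and 11 in wM. The heat members HSFA2, HSP90-1 and MED37C, an HSP70, did pass and rose by 0.96, 0.59 and 0.80 on the log2 scale. The part that handling at harvest had in the rises was not tested. The touch genes CML12 and CML24, calmodulin-like calcium sensors, rose from means of 52 and 18.1 FPKM to 92.9 and 76.2 FPKM. A run of 3 neighbouring small genes with no deposited symbol, AT4G27652, AT4G27654 and AT4G27657, chosen after their values were seen, rose by 4.27, 4.51 and 4.04 on the log2 scale. AT4G27654 was at 0.0843, 0 and 0.0878 FPKM in wY and 23.8, 24.3 and 21.2 FPKM in wM.

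Promoters of such genes are known for the rapid stress response element CGCGTT. It was found in 3.40% of all promoters, in 5.61% of the 3513 promoters of genes higher in mature leaves, in 2.52% of the 4845 of genes lower in mature leaves, and in 3 of the 20 of the touch and heat handling list (15.0%). The core of the abscisic acid response element, ACGTG, which the G-box CACGTG also holds, was in 26.7% of all promoters, in 34.2% of those of the higher genes and in 24.7% of those of the lower genes. The median log2 change was 2.02 for the 3 list members with the rapid stress response element and 2.43 for the 17 without it. It was 2.08 for the 12 members with the abscisic acid core and 2.30 for the 8 without it. TIFY10A, also called JAZ1, had the largest rise among the 3 list members with the rapid stress response element. It is a repressor that jasmonate both degrades and induces, and it was at 7.27, 6.45 and 5.81 FPKM in wY and 48.8, 58.8 and 50.5 FPKM in wM (log2 change 2.84 ± 0.19).

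**Figure D4:**
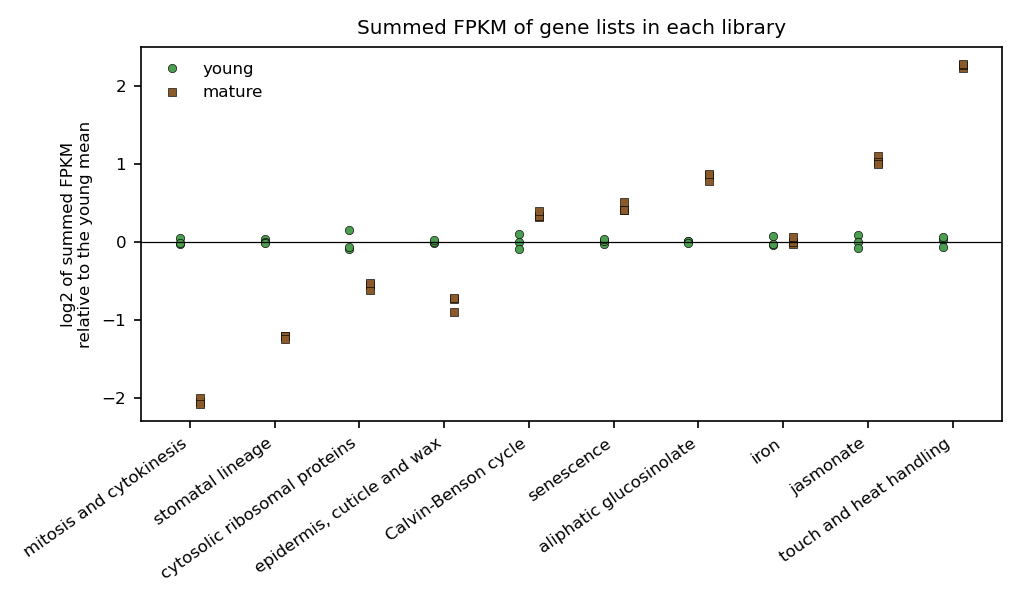
Summed FPKM of 10 gene lists in each young (green circles) and mature (brown squares) Col-0 library, as log2 of the ratio to the mean of the 3 young libraries. The mature libraries lie near -2 for mitosis and cytokinesis and above 2 for touch and heat handling, and the iron list, whose members moved in both directions, is near 0 in all 6 libraries.

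Stress hormone and defence lists had more members higher than lower in mature leaves. Of 31 jasmonate genes 19 were higher and 3 lower (median 0.61). CORI3, a cystine lyase induced by jasmonate, rose from 69.8, 68.5 and 66.7 FPKM to 416, 375 and 372 FPKM, while VSP2, a storage protein also used as a jasmonate marker, fell from 20.7, 22.2 and 22.6 FPKM to 15.8, 14.9 and 14.6 FPKM. Of 45 genes of ethylene and abscisic acid 21 were higher and 4 lower (median 0.24). RAB18, a dehydrin induced by abscisic acid, rose from 2.94, 3.51 and 4.26 FPKM to 93.2, 79.2 and 84.2 FPKM (log2 change 4.25 ± 0.15). LEA7, a late embryogenesis abundant protein, had 4 reads over the 3 wY libraries and was at 17.8, 13 and 18.5 FPKM in wM. CYP707A3, which breaks abscisic acid down, rose from 0.849, 0.799 and 0.68 FPKM to 12.7, 15.6 and 14.6 FPKM. Of 30 genes of salicylic acid and defence, 18 were higher and 2 lower (median 0.44). ACD6, an ankyrin protein of defence and the most abundant of the list, rose from 431, 434 and 396 FPKM to 948, 946 and 955 FPKM. WRKY40, a repressor of defence and abscisic acid genes, rose from 4.42, 4.43 and 3.62 FPKM to 48.8, 55 and 50.3 FPKM. The defensin genes PDF1.2A and PDF1.2C, near-identical copies, were at means of 3.54 and 0.482 FPKM in wY and 42.9 and 21.8 FPKM in wM, and both rose.

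Of 55 tested WRKY factors, 22 were higher and 6 lower (median 0.28), and of 56 NAC factors 22 were higher and 11 lower (median 0.19). The NAC count depended on the filter on low values, with 23 higher and 19 lower (median 0) without it and 15 higher and 1 lower (median 0.76) with the stricter one. WRKY70, a factor of salicylic acid signalling and the most abundant WRKY, rose from 85.2, 88.5 and 91.1 FPKM to 166, 169.5 and 187 FPKM. WRKY44, which acts in trichomes, fell from 5.23, 4.47 and 4.67 FPKM to 0.634, 0.274 and 0.234 FPKM. NAC090, a NAC factor that restrains salicylic acid responses, rose from 7.13, 6.32 and 5.79 FPKM to 34.2, 36 and 34.8 FPKM.

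Specialised metabolism changed by pathway. Genes that make aliphatic glucosinolates, the methionine-derived defence compounds of this family, were higher in mature leaves for 22 of 26 tested and lower for 2, with a median log2 change of 1.02. BCAT4, the first enzyme of the chain elongation of methionine, was at 22.9, 24.7 and 21.3 FPKM in wY and 114, 101 and 126 FPKM in wM (log2 change 2.26 ± 0.12). MAM3, a synthase of that elongation, had 3, 3 and 4 reads in the wY libraries and was at 12.3, 10.6 and 11 FPKM in wM. CYP79F1, which commits the product to glucosinolates, rose from a mean of 38 to 122 FPKM. Of 33 genes of indolic glucosinolates and camalexin, 17 were higher and 4 lower (median 0.34), led by MYB51, a regulator of the indolic branch, from 5.67, 4.75 and 4.58 to 18.8, 21.9 and 19.9 FPKM. The enzymes that break glucosinolates down went the other way: the myrosinases TGG1 and TGG2 fell from 2626, 2450.4 and 2231 FPKM to 1066, 863 and 1014 FPKM and from 1343, 1197 and 1144 FPKM to 315, 248 and 279 FPKM. Of 22 genes of flavonoids and anthocyanins 16 were lower and 1 higher (median -0.91). CHS, chalcone synthase, which opens the pathway, fell from 176, 166 and 173 FPKM to 59.9, 54.9 and 61.8 FPKM. LDOX, which acts late in it, fell from 22.9, 25.6 and 22.4 FPKM to 3.45, 3.45 and 3.56 FPKM.

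Metal and nutrient genes also moved with age. Of 24 iron genes, 17 were higher and 4 lower (median 0.85). NAS1, a nicotianamine synthase that makes the metal chelator of the phloem, rose from 0.341, 0.326 and 0.452 FPKM to 16, 16.4 and 15.4 FPKM (log2 change 3.63 ± 0.10). FRO7, a chloroplast iron reductase, rose from 13.5, 14.3 and 12.5 FPKM to 48.6, 51.8 and 49.1 FPKM, while the ferritin FER4, an iron store, fell from 53.5, 54.4 and 48.7 FPKM to 17.3, 17.5 and 20.3 FPKM. The list also holds superoxide dismutases, and these parted by metal: the iron enzyme FSD1 rose from 187, 189.8 and 222 FPKM to 351, 349.8 and 377 FPKM, and the copper/zinc enzyme CSD2 fell from 339, 358 and 337 FPKM to 95.1, 99.5 and 109.9 FPKM. Of 33 phosphate and sulfate genes 13 were higher and 4 lower (median 0.31). APK1, which makes the sulfate donor used for glucosinolates, rose from 31.2, 35.7 and 33.1 FPKM to 77.2, 68.7 and 76.6 FPKM.

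Of 39 auxin genes, 22 were lower and 4 higher (median -0.44). TAR2, an enzyme of auxin synthesis, fell from 4.71, 5.14 and 6.15 FPKM to 1.38, 1.78 and 2.42 FPKM. IAA2, an early auxin-induced repressor, rose from 10.2, 14.1 and 11.2 to 23.1, 21.4 and 22.1 FPKM. Of 49 genes of cytokinin, gibberellin and brassinosteroid, 9 were higher and 15 lower (median -0.17), which is 18.4% and 30.6% against 18.8% and 25.2% of all genes. The gibberellin-regulated GASA1 and GASA4 moved in opposite directions, GASA1 from 22.2, 17.6 and 19.9 FPKM to 232, 224 and 249 FPKM and GASA4 from 277, 276 and 303 FPKM to 52.6, 44.5 and 48.5 FPKM. ARR15, a cytokinin-induced response regulator, fell from 12.8, 11.5 and 11.2 to 1.53, 1.74 and 1.74 FPKM.

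By change in FPKM, the largest rises and falls lay in other genes. ECS1, a small wall protein, was at 2157, 2190.4 and 2265 FPKM in wY and 4501, 4629.9 and 5057 FPKM in wM. THI1, which makes the thiazole part of thiamine, rose from 2013, 1890.2 and 2779.8 FPKM to 3905, 3636 and 3831 FPKM. RBCS-1B, a Rubisco small subunit, rose from 942, 846 and 1366 FPKM to 2107, 2112 and 2062 FPKM. The largest falls were of GER3 and the myrosinases. GER3, a germin-like protein, went from 2180.1, 2152 and 1928 FPKM to 259, 260.1 and 314 FPKM (log2 change -2.91 ± 0.14). CP29, here the chloroplast RNA-binding protein of that name, fell from 1254, 1140.4 and 1249.6 FPKM to 580.2, 564 and 568 FPKM. RBCS-2B rose from 3207, 2952 and 2968 FPKM to 4203, 4203 and 4306 FPKM (log2 change 0.48 ± 0.09), but its change was -0.25 with quantile normalization. The Rubisco small subunit genes are near-identical copies, so their split of reads is uncertain.

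Whether Col-0 and dpe2/phs1 leaves change alike with age was tested with the interaction of genotype and leaf age, where the age contrasts share no library. Of 19575 genes, 9545 (48.8%) had an age change in Col-0 that differed from that in dpe2/phs1, 5467 (27.9%) with the higher change in Col-0 and 4078 (20.8%) with the lower. That split turned with the scaling of the libraries, to 4671 higher and 5088 lower with the median of ratios and to 4592 and 4792 with quantile normalization. In dpe2/phs1 itself 5181 genes (26.5%) were higher and 8074 (41.2%) lower in mature leaves. Of 6381 genes that passed in both genotypes, 5429 (85.1%) moved in the same direction. The dM libraries differed from the other leaf libraries in how expression varied with gene length. The median deviation (log2) of the longest 10% of protein-coding genes minus that of the shortest 10% was -0.635 to -0.216 in dM, against 0.139 to 0.727 in dY, 0.378 to 0.685 in wY and 0.371 to 0.692 in wM. With the length trend removed 10129 genes differed, 8543 of them among the 9545.

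Mitosis genes were lower in mature leaves of both genotypes, 22 of 24 in Col-0 and 23 of 24 in dpe2/phs1. The shares of all genes that were lower were 25.2% in Col-0 and 41.2% in dpe2/phs1. The median log2 change of the mitosis list was -1.93 in Col-0 and -1.85 in dpe2/phs1. The interaction passed for 11 of 24 genes of the list, near the 48.8% of all genes. HMGB6, named above for its large fall and not a member of this list, fell by 3.70 in Col-0 and by 3.85 in dpe2/phs1 (difference 0.15, adjusted p = 0.726). The touch and heat handling list had a median of 2.22 in Col-0 and 0.34 in dpe2/phs1, and the change was higher in Col-0 for 15 of 20 genes and lower for 2. Among all genes, 27.9% had the higher change in Col-0 and 20.8% the lower. ERF018 was at means of 1.61 and 80.9 FPKM in Col-0 and 14 and 13.3 FPKM in dpe2/phs1, so that the young mutant leaves were already above the young Col-0 leaves. The flavonoid list also differed, with a median of -0.91 in Col-0 and 0.32 in dpe2/phs1, and the change was lower in Col-0 for 15 of 22 genes. CHS changed by -1.53 ± 0.16 in Col-0 and by 1.3 in dpe2/phs1. The senescence list had a median of 0.55 in Col-0 and 1.31 in dpe2/phs1, with a lower change in Col-0 for 26 of 42 genes. The cytosolic ribosomal list had a median of -0.53 in Col-0 and -0.09 in dpe2/phs1, with a lower change in Col-0 for 79 of 201 genes. BAM6 changed by 2.57 ± 0.24 in Col-0 and by -2.15 in dpe2/phs1 (difference 4.72, adjusted p = 3.15e-10).

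**Figure D5:**
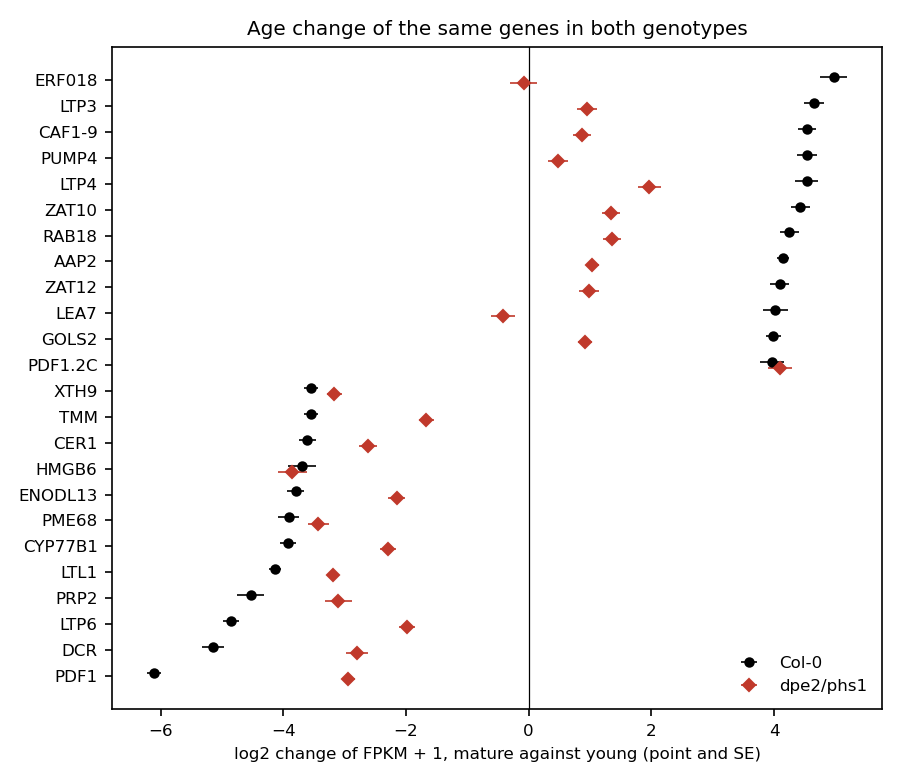
Log2 change with leaf age (mature against young, FPKM + 1, point and standard error) in Col-0 (black circles) and dpe2/phs1 (red diamonds) for the 12 largest rises and 12 largest falls of Col-0. PDF1.2C lies at 3.97 in Col-0 and 4.1 in dpe2/phs1, while ERF018 lies at 4.97 and -0.08. The genes were chosen by their change in Col-0.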

How the data were processed

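The labels describe RNA libraries (NEBNext Ultra RNA kit) of total RNA, sequenced on an Illumina NovaSeq. The authors mapped paired reads with HISAT2, and the submitters' processing notes name CASAVA, featureCounts and the build TAIR10. They deposited 1 table of FPKM values per gene, which already divides by gene length and library depth. Whole reads were recovered from these values (tolerance 0.02) for depth, floors and 1 alternative test. Log2(FPKM + 1) was fitted with limma 3.58.1 in R 4.3.3, 1 mean for each of 8 groups over 24 libraries (16 residual degrees of freedom), a trended prior and Benjamini-Hochberg adjustment over 19575 genes with a mean of at least 1 FPKM in at least 1 group. FPKM values are not counts, so the study's own count test was not repeated. On simulated data with known changes the fit was tested before use.

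The members and the gene lists were chosen with earlier results of these data known. In all, 51 lists were used, and 16 listed names had no locus in the tables used here. Named genes are the 12 largest rises and falls (adjusted p under 0.05, no overlap, at least 5 FPKM in the higher group, deposited symbol), the 6 largest rises and falls in FPKM, and in each list up to 3 members in each direction with the most abundant one. Other list members named were chosen after their values were seen. Promoters were read from RefSeq TAIR10.1, where 99.95% of the 32548 matched genes have the deposited coordinates. Alternatives changed the pseudocount, the filter, the scaling, the length trend, the libraries in the fit and the test. Reads without molecular identifiers are not independent molecules, so floors cover counting error only. A few genes and sequences are not reported here.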

Additional observations from a re-analysis of the deposited data

Results flagged for a closer look

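Among the 24 genes with the largest age change in Col-0, 20 changed differently in dpe2/phs1 by the test of the difference itself (age change in Col-0 minus age change in dpe2/phs1, log2 scale, limma, adjusted over 19575 genes, 3 libraries in each of 4 groups). They were chosen for a large change in Col-0, so a smaller change elsewhere is partly set by that choice. Over all genes 48.8% passed this test.

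Of the 12 rises, 11 were larger in Col-0. The difference was 5.05 ± 0.31 (SE) for ERF018 (adjusted p = 3.03e-11), 4.44 for LEA7, 4.06 for PUMP4, 3.70 for LTP3 and 3.67 for CAF1-9. It was 3.12 for ZAT12, 3.11 for AAP2, 3.09 for ZAT10, 3.07 for GOLS2, 2.89 for RAB18 and 2.57 for LTP4. The defensin PDF1.2C was the exception at -0.14 (adjusted p = 0.708). LTP3 stood at means of 332 and 646 FPKM in young and mature dpe2/phs1 leaves, against 0.153 and 28 FPKM in Col-0.

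Of the 12 falls, 9 were deeper in Col-0. The difference was -3.17 ± 0.15 (SE) for PDF1 (adjusted p = 7.18e-13), -2.87 for LTP6, -2.36 for DCR, -1.89 for TMM and -1.65 for ENODL13. It was -1.64 for CYP77B1, -1.43 for PRP2, -0.98 for CER1 and -0.95 for LTL1. PME68, HMGB6 and XTH9 did not pass, at -0.48, 0.15 and -0.38. All 9 also fell in dpe2/phs1, by 1.67 to 3.19 on the log2 scale. The gap between long and short genes in the mature dpe2/phs1 libraries, given above, moves with these contrasts, and its part in the single differences was not tested.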

How the results depend on the processing

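The number of genes that differed between mature and young Col-0 leaves was 8621 and ranged from 6529 (genes of at least 5 FPKM) to 10356 (the 6 Col-0 libraries alone) over 9 alternatives, and from 7598 to 8032 when 1 library was left out. No gene called in both turned its direction, except 1 gene under quantile normalization, RBCS-2B, which went from 0.48 to -0.25 (adjusted p = 0.021). The interaction count was 9545, with a range of 6947 to 10129 and of 8502 to 9303 without 1 library. Among genes called in both, its sign turned for 4 with a pseudocount of 0.1, 11 with the length trend removed and 17 with voom on recovered reads, and for none under the other alternatives. All of these lie within 1.5 times of the counts reported.

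No pairing of the samples by the replicate numbers of the labels was detected. The deviations of same-numbered wY and wM libraries correlated at -0.031, 0.105 and 0.066, and those of unlike number at -0.163 to 0.105. With so few libraries these values cannot exclude that young and mature leaves shared plants. With the replicate number as a block the 6-library fit called 10158 genes, against 10356 without the block, and the interaction fit 10110 against 10104. Of 5227 comparisons of a single gene or list median with an alternative, 4966 kept their direction and side of the threshold, 162 no longer passed, 43 newly passed, 55 list medians moved and 1 reversed. A pseudocount of 0.1 or the test on recovered reads widened the medians of weakly expressed lists, for example the trichome list from -0.51 to -1.09 and -1.17. In the fit of the 6 Col-0 libraries alone, the 3 lower starch degradation genes became 6. Depth limits what can be said of genes with few reads, where a floor of 3 reads for a gene 1 kb long equals 0.108 to 0.171 FPKM.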

Other observations

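Few genes of the clock and heat shock lists passed the test of leaf age in Col-0. Of 23 clock genes 3 were higher and 1 lower, with a median log2 change of -0.01, in leaves harvested at the same time of day. APRR5, a pseudo-response regulator, was the one that fell, from 8.15, 7.44 and 6.85 FPKM to 3.04, 3.52 and 3.19 FPKM, and RVE4, a related MYB factor of the morning, rose from 19, 21.6 and 23.1 to 30.4, 27.1 and 29.5 FPKM. In the fit of the 6 Col-0 libraries alone 5 clock genes were higher and 5 lower. Of 32 heat shock protein genes 4 were higher and 4 lower (median -0.12), and in the 6-library fit 10 were lower. Of 26 SAUR genes, which respond to auxin in growing tissue, 7 were higher and 3 lower. SAUR72 rose from 3.47, 2.92 and 3.75 FPKM to 31, 27.3 and 32.9 FPKM.

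Of 30 regulators of the vegetative phase and of flowering, 5 were higher and 8 lower (median -0.21), or 16.7% and 26.7%, near the 18.8% and 25.2% of all genes. SPL9, an age-dependent promoter of the adult phase, fell from 7.78, 7.68 and 8.84 FPKM to 2.8, 3.03 and 2.18 FPKM, while SPL4, a related factor, rose from 0.851, 1.22 and 1.6 FPKM to 4.49, 4.74 and 5.08 FPKM. Without the third wY library 2 of the list were higher, without the first or the second wM library 3, and without the second wY library 5 were lower. Of 8 tested meristem genes ATH1, a homeodomain factor, was the one that passed, from 12.6, 15.1 and 11.2 FPKM to 21, 23.9 and 21.8 FPKM. STM, KNAT1, CUC3 and KNAT2 had 26, 19, 15 and 17 reads over the wY libraries and 0, 0, 0 and 3 over the wM libraries. With means of at most 0.246 FPKM in either group, none of these passed after 1 FPKM was added. AT2G33850, an E6-like protein with no deposited symbol and chosen after its values were seen, fell by 6.17 on the log2 scale, from 76.9, 81.2 and 76.9 FPKM to 0.0589, 0.258 and 0 FPKM. BGLU23, a myrosinase of the endoplasmic reticulum known best from roots and seedlings, fell from 4.37, 6.84 and 5.28 FPKM to 0.219, 0.203 and 0.198 FPKM.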
